A study of Mus musculus with 2 samples.

Results

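Collagens are the main structural proteins of the extracellular matrix, and their chains are encoded by separate genes that are named by a type number and a chain number. In the deposited matrix of single-nucleus RNA counts from the lactating mouse mammary fat pad, 44 of 33943 genes carried a symbol made of Col, a number, the letter a and a number, and all 44 had at least 1 unique molecular identifier (UMI, the tag that counts 1 captured RNA molecule once). Together they held 110016 of 107910356 UMIs, or 0.102%. By the class of structure that their proteins form, 11 were fibrillar, 6 belonged to the basement membrane network, 6 to beaded filaments, 9 to the fibril-associated collagens (FACIT), 4 to the transmembrane collagens, 3 to hexagonal networks, 2 to the multiplexins and 1 to anchoring fibrils, and the remaining 2 were Col26a1 and Col28a1.

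Nuclei came from the inguinal fat pad, with its lymph nodes removed, of 8 dams lactating at postnatal day 11. Hashtags, which are barcodes attached to the nuclei of each animal before pooling, named 4 animals KO and 4 animals WT. The labels give the genotypes as an adipocyte-specific knockout of Oxtr, the oxytocin receptor gene, and as Oxtr flox, so the WT hashtags were taken as the Oxtr flox dams. Mice were paired for breeding at 8 weeks of age on a chow diet, and litters were set to 4 to 5 pups on the first day after birth. No label says which promoter drives the deletion in adipocytes. The nuclei of all 8 animals were sequenced as 1 gene expression library, and 13057 nuclei were assigned to an animal, with 1200 to 1862 per KO-labelled animal and 1421 to 1991 per WT-labelled animal. The labels state that nuclei of some samples were washed to lower free RNA, without saying which. Cell types were called from marker genes after clustering in which no collagen gene was used, although the other genes that were used can vary together with collagens. The names rest on marker lists, with Adipoq, for example, at a pooled 382 CPM in adipocyte nuclei and 2.26 CPM in secretory luminal nuclei. Levels are given as CPM, the UMIs of a gene per 1000000 UMIs of the same animal and cell type, and they are compared between cell types and animals for 1 gene at a time, since CPM does not correct for gene length.

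Oxtr itself was rarely read in adipocyte nuclei. KO-labelled animals 1 to 4 had 4, 5, 5 and 3 Oxtr UMIs there, against 1 UMI in each of the 4 WT-labelled animals. Those counts equal 14.3, 13.9, 22.3 and 12.5 CPM in KO-labelled adipocytes and 4.40, 6.23, 4.96 and 5.46 CPM in WT-labelled adipocytes, beside 4.15 CPM in secretory luminal nuclei. The counts were therefore not lower under the KO label, and because no label states the deleted stretch and nuclear reads can fall outside it, they do not check the labels. The groups are called KO-labelled and WT-labelled throughout.

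Fibrillar collagens such as types I, III and V assemble into the tensile fibres of connective tissue, which fibroblasts lay down. Type IV collagen forms the sheet-like network of basement membranes, which surround milk-secreting epithelium, blood vessels and each adipocyte. FACIT collagens sit on the surface of fibrils, type XVII collagen anchors basal epithelial cells to their basement membrane from within the cell membrane, and type VII collagen forms the anchoring fibrils below it. In the mammary gland the layer of myoepithelial cells, which contracts to eject milk, lies between the secretory cells and the basement membrane.

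The genes of type IV collagen lie in head-to-head pairs, and their start regions are shown because the members of each pair had their high levels in the same cell types, Col4a1 and Col4a2 in fibroblast, vascular endothelial, adipocyte and myoepithelial nuclei and Col4a5 and Col4a6 in myoepithelial and luminal progenitor nuclei. The windows are from RefSeq (mouse build GRCm38.p6) and run from 250 bases before to 50 bases after the start of each gene, 5′ to 3′ on the strand of that gene. Capitals mark CCAAT and GGGCGG, the letters of the CCAAT box and of a GC box, on either strand. The Col4a1 window is chr8:11312777-11313076 on the minus strand and the Col4a2 window is chr8:11312555-11312854 on the plus strand. The Col4a5 window is chrX:141475169-141475468 on the plus strand and the Col4a6 window is chrX:141474027-141474326 on the minus strand.
Col4a1: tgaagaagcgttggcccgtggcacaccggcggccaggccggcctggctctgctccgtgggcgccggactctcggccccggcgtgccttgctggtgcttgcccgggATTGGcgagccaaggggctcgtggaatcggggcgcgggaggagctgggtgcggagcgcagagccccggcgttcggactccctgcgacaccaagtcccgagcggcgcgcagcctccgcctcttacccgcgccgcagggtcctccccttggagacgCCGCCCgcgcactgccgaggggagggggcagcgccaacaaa
Col4a2: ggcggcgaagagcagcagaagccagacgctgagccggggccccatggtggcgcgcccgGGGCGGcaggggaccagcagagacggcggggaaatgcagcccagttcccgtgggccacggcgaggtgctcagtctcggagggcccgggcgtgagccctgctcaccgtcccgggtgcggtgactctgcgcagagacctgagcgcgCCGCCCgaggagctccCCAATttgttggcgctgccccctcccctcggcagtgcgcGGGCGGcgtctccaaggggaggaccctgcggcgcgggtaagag
Col4a5: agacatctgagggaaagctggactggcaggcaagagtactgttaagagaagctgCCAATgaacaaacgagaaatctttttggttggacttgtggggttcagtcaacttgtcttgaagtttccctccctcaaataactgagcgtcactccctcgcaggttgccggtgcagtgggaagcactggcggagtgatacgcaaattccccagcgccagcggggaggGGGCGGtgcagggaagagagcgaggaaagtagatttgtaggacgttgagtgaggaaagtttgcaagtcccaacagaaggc
Col4a6: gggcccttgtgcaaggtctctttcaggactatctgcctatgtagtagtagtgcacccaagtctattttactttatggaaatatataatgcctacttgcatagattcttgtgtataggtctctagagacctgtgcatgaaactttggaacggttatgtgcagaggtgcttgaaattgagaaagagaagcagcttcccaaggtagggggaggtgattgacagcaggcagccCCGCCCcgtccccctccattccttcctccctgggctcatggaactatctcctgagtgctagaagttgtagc
The starts of Col4a1 and Col4a2 lay 21 bases apart, and their windows shared 78 bases, shown here on the plus strand.
Shared by Col4a1 and Col4a2: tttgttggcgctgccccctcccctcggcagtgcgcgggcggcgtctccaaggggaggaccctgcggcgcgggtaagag
The starts of Col4a5 and Col4a6 lay 1343 bases apart and their windows did not overlap. The Col4a1 window held 1 CCAAT and 1 GGGCGG, the Col4a2 window 1 and 3, the Col4a5 window 1 and 1, and the Col4a6 window 0 and 1. No window of these 4 held TATAAA on either strand. G and C made up 74.0% and 73.7% of the Col4a1 and Col4a2 windows and 52.7% and 48.3% of the Col4a5 and Col4a6 windows, beside a median of 52.7% over all 32851 windows of this length. CCAAT stood in 37.4% of all windows, GGGCGG in 35.7% and TATAAA in 13.6%, and among 38 windows of 35 collagen genes the counts were 13, 23 and 5. A match describes the letters of a window and does not show a bound site.

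Fibroblast nuclei carried the largest part of the collagen RNA. They were 5.39% of the assigned nuclei and held 41.7% of their collagen UMIs, while secretory luminal nuclei, the milk-making cells, were 72.4% of nuclei and held 32.3%. Collagen UMIs made up 0.728% ± 0.139 of all fibroblast UMIs in KO-labelled animals and 0.619% ± 0.0807 in WT-labelled animals (SD, n = 4 each). In myoepithelial nuclei the share was 0.185% ± 0.0207 in KO-labelled and 0.210% ± 0.0159 in WT-labelled animals (SD, n = 4 each). Pooled over animals, the share was 0.0976% in vascular endothelial, 0.0974% in luminal progenitor, 0.0769% in adipocyte, 0.0650% in a cluster led by Klra2 that is given no type name, 0.0328% in secretory luminal and 0.0306% in macrophage nuclei. Of the 44 genes, 33 reached 50 UMIs in at least 1 cell type. Among 8 cell types, 19 of those 33 had their highest pooled level in fibroblasts, 9 in myoepithelial nuclei, 2 in luminal progenitors, and 1 each in vascular endothelial, adipocyte and secretory luminal nuclei. The counts behind 2 of these placements were small, with 4 UMIs for Col19a1 in luminal progenitors and 7 UMIs for Col11a2 in adipocytes.

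**Figure D1:**
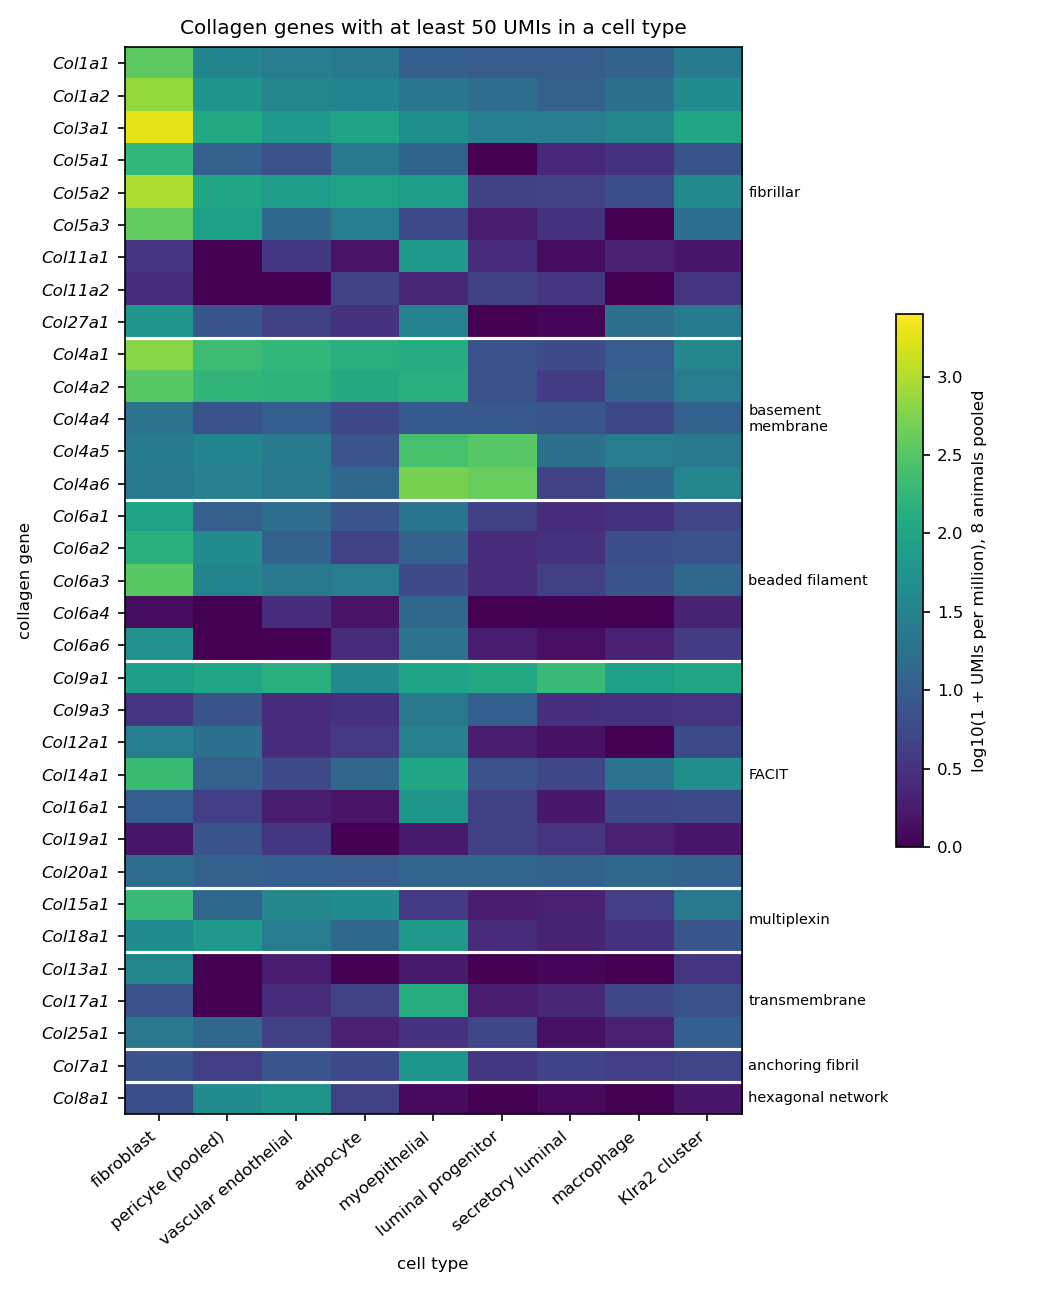
Level of each collagen gene with at least 50 UMIs in a cell type (rows, grouped by structural class) in 9 cell types (columns), as log10(1 + CPM) over the pooled UMIs of 8 animals. Most fibrillar and beaded filament genes are brightest in fibroblasts, while Col11a1 and Col6a4 are brightest in myoepithelial nuclei, Col11a2 is dim in all 9 columns, Col4a5 and Col4a6 are brightest in myoepithelial and luminal progenitor nuclei, and Col9a1 in secretory luminal nuclei.

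Cell types were compared with secretory luminal nuclei, whose collagen counts show the level that a numerous cell type and free RNA together reach. In fibroblasts, 26 of the 44 collagen genes passed the filter on low counts, 22 of them were higher and 1 was lower at an adjusted p under 0.05 (edgeR's quasi-likelihood test with the animal as a block), while 26.4% of the 11335 genes tested were higher and 28.9% lower. The median log2 fold change of those collagen genes was 5.75, against -0.08 over all genes tested. A gene can pass the filter through the type where it is high, so these counts describe the tested genes and do not stand for all 44. The nuclei were also sorted into types by their own expression, and the p-values do not allow for that step.

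All 7 fibrillar collagens that were tested were higher in fibroblasts. Col3a1, the single chain of type III collagen, was at 1590, 2135, 1643 and 2382 CPM in fibroblasts of KO-labelled animals 1 to 4 and at 2025, 1233, 1793 and 1563 CPM in those of WT-labelled animals. In every animal it was far above its secretory luminal level, which lay between 24.3 and 30.7 CPM, and the log2 fold change was 5.90 ± 0.10 (SE, adjusted p = 3.6e-30). Col1a1 and Col1a2 encode the chains of type I collagen. Col1a2 was at 653, 798, 641 and 1023 CPM in KO-labelled and 744, 464, 706 and 643 CPM in WT-labelled fibroblasts, and Col1a1 at 362, 415, 211 and 548 CPM in KO-labelled and 357, 216, 287 and 390 CPM in WT-labelled fibroblasts. Their log2 fold changes over secretory luminal nuclei were 5.95 ± 0.11 and 5.14 ± 0.12 (SE). The genotype groups overlapped for all 3 genes, and KO-labelled animal 4 was the highest of the 8 for each.

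Type V collagen, which joins type I in mixed fibrils and limits their width, was also a fibroblast product here. Col5a2 was at 826, 1136, 920 and 1186 CPM in KO-labelled and 979, 694, 939 and 839 CPM in WT-labelled fibroblasts, with a log2 fold change of 7.81 ± 0.11 (SE) over secretory luminal nuclei. Col5a3 was at 287, 549, 388 and 412 CPM in KO-labelled and 353, 306, 369 and 367 CPM in WT-labelled fibroblasts (log2 7.27), and Col5a1 averaged 192 ± 51.2 CPM in KO-labelled and 162 ± 25.5 CPM in WT-labelled fibroblasts (SD, n = 4 each, log2 6.69). Col27a1, a fibrillar chain of cartilage and other tissues, was lower in level, with 60.8 ± 14.95 CPM in KO-labelled and 55.4 ± 2.19 CPM in WT-labelled fibroblasts, and its log2 fold change was 8.01. The remaining fibrillar genes were elsewhere or scarce. Col11a1 was a myoepithelial gene. Col11a2 had 165 UMIs in all assigned nuclei, at no more than a pooled 3.73 CPM in any of the 8 cell types ranked. Col2a1 and Col24a1, of cartilage and bone matrix, had 4 and 14 UMIs.

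All 4 beaded filament genes that were tested were higher in fibroblasts, where type VI collagen links cells to the surrounding matrix. Col6a3 was at 257, 479, 296 and 403 CPM in KO-labelled and 328, 313, 328 and 321 CPM in WT-labelled fibroblasts. The WT-labelled values lay within those of the KO-labelled animals. Col6a2 averaged 150 ± 32.0 CPM in KO-labelled and 139 ± 27.9 CPM in WT-labelled fibroblasts, and Col6a1 averaged 95.3 ± 22.5 CPM in KO-labelled and 89.6 ± 14.3 CPM in WT-labelled fibroblasts (SD, n = 4 each). Col6a6 averaged 53.6 ± 13.3 CPM in KO-labelled and 49.1 ± 10.4 CPM in WT-labelled fibroblasts. Their log2 fold changes over secretory luminal nuclei were 6.47 for Col6a3, 5.92 for Col6a2, 5.54 for Col6a1 and 6.87 for Col6a6. Col6a4 was instead highest in myoepithelial nuclei, at 11.3 ± 6.16 CPM in KO-labelled and 13.1 ± 5.12 CPM in WT-labelled animals, and Col6a5 had 3 UMIs in all.

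Both multiplexins, basement membrane collagens with chains of glycosaminoglycan, were higher in fibroblasts than in secretory luminal nuclei. Col15a1 was at 167, 323, 265 and 220 CPM in KO-labelled and 144, 119, 211 and 157 CPM in WT-labelled fibroblasts (log2 7.30 over secretory luminal nuclei). Col18a1, whose tail gives the fragment endostatin, was higher still in myoepithelial nuclei, at 55.4, 72.7, 34.9 and 86.9 CPM in KO-labelled and 51.9, 64.5, 66.0 and 84.8 CPM in WT-labelled animals. Between fibroblasts and myoepithelial nuclei Col18a1 differed by a log2 of -0.56 ± 0.16 (SE, adjusted p = 0.0056). Col13a1 and Col25a1, transmembrane collagens, were fibroblast genes of low level. Col13a1 averaged 33.5 ± 7.195 CPM in KO-labelled and 35.1 ± 4.96 CPM in WT-labelled fibroblasts, and Col25a1 averaged 23.2 ± 17.6 CPM in KO-labelled and 20.1 ± 3.07 CPM in WT-labelled fibroblasts (SD, n = 4 each).

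The fibril-associated Col14a1 was found in fibroblasts and in myoepithelial nuclei. In fibroblasts it was at 177, 181, 163 and 267 CPM in KO-labelled animals and at 331, 86.3, 255 and 123 CPM in WT-labelled animals. The 4 WT-labelled values spread more widely than the 4 KO-labelled ones and lay on both sides of them. In myoepithelial nuclei Col14a1 averaged 103 ± 24.9 CPM in KO-labelled and 113 ± 31.0 CPM in WT-labelled animals (SD, n = 4 each). Col20a1, another FACIT gene, had 773 UMIs but stood at nearly 1 level in all types, with 16.7 ± 4.87 CPM in KO-labelled and 14.6 ± 0.866 CPM in WT-labelled fibroblasts, and it was not called in any of the comparisons with secretory luminal nuclei.

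The fibroblast nuclei formed a pair of clusters that differed in their collagens, which was compared after the clusters had been seen. One cluster, with 143 nuclei, carried Pi16 and Dpp4, markers of an adventitial type of fibroblast, and the other held 561 nuclei. Of 15 collagen genes tested, 1 was higher and 7 were lower in the Pi16 cluster, while 9.94% of the 3512 genes tested were higher and 7.35% lower. Col14a1 was the higher one, with a lowest value of 350, a median of 572 and a highest value of 807 CPM over the 8 animals in the Pi16 cluster, against 45.1, 99.7 and 254 CPM in the other cluster. Its values did not overlap between the clusters, and the log2 fold change was 2.23 ± 0.25 (SE, adjusted p = 1.7e-07).

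Col4a1, Col4a2 and Col15a1, all of basement membranes, were among the genes lower in the Pi16 cluster. Col4a1 had a lowest value, median and highest value of 24.2, 109 and 264 CPM in the Pi16 cluster, against 593, 725 and 883 CPM in the other cluster. For Col4a2 these were 14.4, 101 and 235 CPM in the Pi16 cluster, against 287, 375 and 499 CPM in the other cluster. For Col15a1 they were 0, 15.8 and 88.1 CPM in the Pi16 cluster, against 123, 231 and 357 CPM in the other cluster. The clusters did not overlap for any of these 3 genes, and the log2 fold changes were -2.65 ± 0.24, -2.11 ± 0.26 and -3.39 ± 0.38 (SE). The other lower genes were Col27a1, Col6a2 (log2 -1.80), Col6a3 (-0.97) and Col1a1 (-0.61). Col27a1 had 3 UMIs in the Pi16 cluster, all from WT-labelled animal 4, against 194 UMIs in the other cluster, and its fitted log2 was -3.66 with that animal and -6.94 without it. The call of Col1a1 was the least firm, since it was lost without any 1 of the 4 KO-labelled animals, where the log2 values were -0.62 to -0.51. Col3a1 (log2 0.04 ± 0.13, SE) and Col1a2 (-0.10 ± 0.15, SE), of the interstitial fibrils, were not called. Col13a1 and Col25a1 had 0 UMIs in the Pi16 cluster, where a count of 0 allows a level of up to 4.97 CPM, against 118 and 73 UMIs in the other cluster. The summed level of the 12 fibroblast markers was 10770 CPM in the Pi16 cluster and 6226 CPM in the other cluster. The markers did not all go 1 way. Pi16 (519 against 32.7 CPM) and Dpp4 (1041 against 114 CPM), both in that list, were higher in the Pi16 cluster. Pdgfra (211 against 538 CPM) and Lama2 (1089 against 2958 CPM) of the same list were lower. The part of these marker differences in the collagen results was not tested. The Pi16 cluster gave 13, 19, 15 and 23 nuclei in KO-labelled animals and 33, 10, 13 and 17 nuclei in WT-labelled animals.

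**Figure D2:**
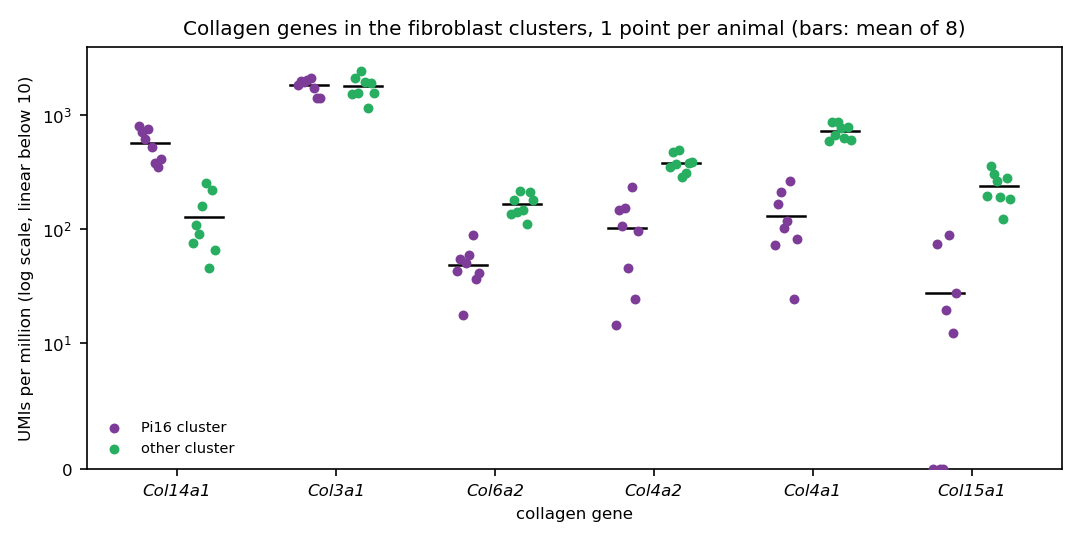
Level of 6 collagen genes in the Pi16 fibroblast cluster (left of each pair) and the other fibroblast cluster, in CPM on a log axis that is linear below 10, with 1 point per animal and a bar at the mean of 8 animals. Col14a1 is higher in the Pi16 cluster, Col3a1 overlaps, and Col6a2, Col4a2, Col4a1 and Col15a1 are lower in it.

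Myoepithelial nuclei had a collagen set of their own. Of 25 genes that passed the filter, 21 were higher and 1 was lower than in secretory luminal nuclei, while 27.1% of the 11396 genes tested were higher and 30.9% lower, and the median log2 fold change was 4.47, against -0.07 over all genes. The leading gene was Col4a6, a chain of the type IV network found in few basement membranes. It was at 533, 428, 352 and 464 CPM in KO-labelled and 592, 530, 647 and 552 CPM in WT-labelled myoepithelial nuclei, against a pooled 4.98 CPM in secretory luminal nuclei. Its partner Col4a5 was at 250, 250, 234 and 226 CPM in KO-labelled and 319, 244, 315 and 219 CPM in WT-labelled myoepithelial nuclei. The log2 fold changes over secretory luminal nuclei were 6.87 ± 0.16 for Col4a6 and 3.73 ± 0.10 for Col4a5 (SE).

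The anchoring collagens were myoepithelial as well. Col17a1, the transmembrane collagen of hemidesmosomes, was at 129, 134, 114 and 140 CPM in KO-labelled and 143, 96.8, 134 and 149 CPM in WT-labelled animals (log2 6.41 over secretory luminal nuclei). Col7a1, the anchoring fibril chain, was at 59.5, 67.1, 44.4 and 70.9 CPM in KO-labelled and 46.2, 64.5, 66.0 and 62.0 CPM in WT-labelled animals (log2 3.76). The genotype groups overlapped for both. Col11a1, known from cartilage, was at 71.8, 60.2, 85.5 and 59.5 CPM in KO-labelled and 80.8, 23.0, 53.3 and 91.0 CPM in WT-labelled myoepithelial nuclei, with a log2 fold change of 7.37 ± 0.28 (SE). The next highest pooled level of Col11a1 in any type was 2.60 CPM, in vascular endothelial nuclei.

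Several fibril-associated genes of low level were also highest in myoepithelial nuclei. Col16a1 averaged 57.7 ± 19.6 CPM in KO-labelled and 59.96 ± 12.8 CPM in WT-labelled animals (SD, n = 4 each, log2 6.13 over secretory luminal nuclei). Col12a1 averaged 27.5 ± 8.84 CPM in KO-labelled and 29.5 ± 9.76 CPM in WT-labelled animals, beside a pooled 27.5 CPM in fibroblasts. Col9a3 averaged 21.3 ± 4.35 CPM in KO-labelled and 22.5 ± 9.27 CPM in WT-labelled animals, and Col9a2, with 46 UMIs there, averaged 10.7 ± 1.82 CPM in KO-labelled and 13.1 ± 2.06 CPM in WT-labelled animals. Set directly against each other, fibroblasts were higher than myoepithelial nuclei for 16 and lower for 7 of 25 collagen genes, while 18.1% of 6602 genes were higher and 18% lower. The 7 lower genes were Col4a6 (log2 -4.44), Col11a1 (-4.69), Col17a1 (-4.40), Col4a5 (-3.33), Col7a1 (-3.13), Col16a1 (-2.59) and Col18a1 (-0.56). Among the 16 higher genes were Col5a3 (6.36), Col15a1 (6.07), Col6a3 (6.05) and Col3a1 (5.27).

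Among the collagen genes tested in luminal progenitor nuclei, only the Col4a5 and Col4a6 pair was called above the secretory luminal level. Of 10 collagen genes tested, 2 were higher and 1 was lower, while 10.4% of 10358 genes were higher and 12.7% lower. Col4a6 was at 116, 280, 577 and 347 CPM in KO-labelled and 635, 473, 521 and 218 CPM in WT-labelled progenitor nuclei (log2 6.38 ± 0.20, SE). Col4a5 was at 116, 312, 351 and 347 CPM in KO-labelled and 462, 372, 402 and 180 CPM in WT-labelled progenitor nuclei (log2 3.94 ± 0.16, SE). KO-labelled animal 1 and WT-labelled animal 4 were the lowest of their groups for both genes, and the groups overlapped. The ratio of Col4a6 to Col4a5 UMIs was 2.00 ± 0.311 in myoepithelial, 1.21 ± 0.243 in luminal progenitor and 0.231 ± 0.112 in secretory luminal nuclei (SD, n = 8 animals). Col4a1 was not called in progenitor nuclei, with a log2 of -0.08 over secretory luminal nuclei.

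Vascular endothelial and pericyte nuclei shared the Col4a1 and Col4a2 pair and Col8a1. In vascular endothelial nuclei 13 collagen genes were tested, 9 were higher and 1 was lower than in secretory luminal nuclei, while 10.8% of 10526 genes were higher and 11.8% lower (collagen median log2 1.48, against -0.13 over all genes). Col4a1 was at 174, 214, 205 and 109 CPM in KO-labelled and 218, 73.6, 123 and 194 CPM in WT-labelled endothelial nuclei (log2 4.77 ± 0.24, SE). Col4a2 was at 183, 214, 139 and 121 CPM in KO-labelled and 99.2, 110, 145 and 140 CPM in WT-labelled endothelial nuclei (log2 5.49 ± 0.28, SE). The genotype groups overlapped for both chains. Col8a1, a network collagen of vessels, was at 26.8, 60.4, 22.0 and 60.6 CPM in KO-labelled and 238, 24.5, 53.6 and 7.78 CPM in WT-labelled endothelial nuclei, on 64 UMIs (log2 7.53 ± 0.46, SE), and WT-labelled animal 1 was the highest. The calls of Col3a1 and Col1a1 in endothelial nuclei were lost without KO-labelled animal 2, where their log2 values were 0.33 and 0.61.

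Pericytes, the cells that wrap capillaries, gave 42 nuclei, with 2 to 8 per animal, so they were pooled and not tested. Their pooled levels were 214 CPM for Col4a1 on 65 UMIs, 165 CPM for Col4a2, 112 CPM for Col3a1, 66.0 CPM for Col18a1 and 42.9 CPM for Col8a1. Against vascular endothelial nuclei, fibroblasts were higher for 14 and lower for 1 of 15 collagen genes, while 17.9% of 4310 genes were higher and 19.7% lower. The lower gene was Col9a1 (log2 -0.73), a call lost without WT-labelled animal 3 (-0.49) and without the animal block. The smallest of those 14 differences were those of Col4a2 (log2 1.12) and Col4a1 (1.85). Col28a1, with 22 UMIs in endothelial nuclei, was at a pooled 19.0 CPM there. It was at 2.36 CPM in fibroblasts, the next highest of the 8 cell types ranked, which leave out pericytes.

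Adipocyte nuclei carried type IV, type V and type XV collagen RNA above the secretory luminal level. Of 15 collagen genes tested there, 11 were higher and 2 were lower, while 23% of 10796 genes were higher and 31.9% lower, and the median log2 fold change was 1.57, against -0.18 over all genes. Col4a2 (log2 5.16), Col15a1 (4.95), Col4a1 (4.47) and Col5a2 (4.29) led. Col15a1 was at 42.9, 86.2, 31.2 and 29.2 CPM in KO-labelled and 35.2, 18.7, 44.6 and 32.8 CPM in WT-labelled adipocytes. Col5a2 was at 35.7, 156, 53.5 and 54.1 CPM in KO-labelled and 123, 87.2, 84.3 and 120 CPM in WT-labelled adipocytes. Both genes overlapped between the genotype labels, with KO-labelled animal 2 the highest for each. The lower genes were Col9a1 and Col4a5 (log2 -1.50).

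Adipocyte levels stayed below those of fibroblasts for every collagen gene tested, although a gene can pass the filter through the type where it is high. Col23a1, which was not tested here, was at a pooled 13.9 CPM in adipocytes and 13.3 CPM in fibroblasts. Fibroblasts were higher for 16 of 16 tested, while 27.9% of 4987 genes were higher and 26.6% lower, with log2 differences that ranged upward from 0.88 for Col9a1 and 1.37 for Col4a2 to 4.67 for Col6a6 and 5.05 for Col6a2. The fibroblast markers summed to 7035 CPM in fibroblast nuclei and to 1259 CPM in adipocyte nuclei, but the sum does not stand for each marker. In the same order, Pdgfra was at 480 and 5.33 CPM and Lama2 at 2625 and 68.2 CPM. Pi16 was at 119 and 5.86 CPM and Dpp4 at 279 and 29.8 CPM. The other markers of the list are not given singly here. The part of these markers in the adipocyte levels of the fibrillar genes was not tested. Macrophage nuclei, which share the free RNA of the pool, gave a further level to set adipocytes against. Only 2 collagen genes passed the filter in that comparison, and both were higher in adipocytes, Col4a1 by a log2 of 3.78 ± 0.32 and Col3a1 by 1.69 ± 0.27 (SE), while 27.9% of 3292 genes were higher and 26.6% lower. Pooled, Col4a1 was at 135 CPM in adipocytes, 8.46 CPM in macrophages and 5.17 CPM in secretory luminal nuclei.

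The ratio of Col4a2 to Col4a1 UMIs was 0.538 ± 0.0853 in fibroblasts, 0.951 ± 0.343 in adipocytes and 1.15 ± 0.271 in myoepithelial nuclei (SD, n = 8 animals), and 0.846 ± 0.272 in vascular endothelial nuclei (SD, n = 6 animals). In secretory luminal nuclei, where both chains were at a low level, it was 0.568 ± 0.173 (SD, n = 8 animals). No difference between these ratios was tested.

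**Figure D3:**
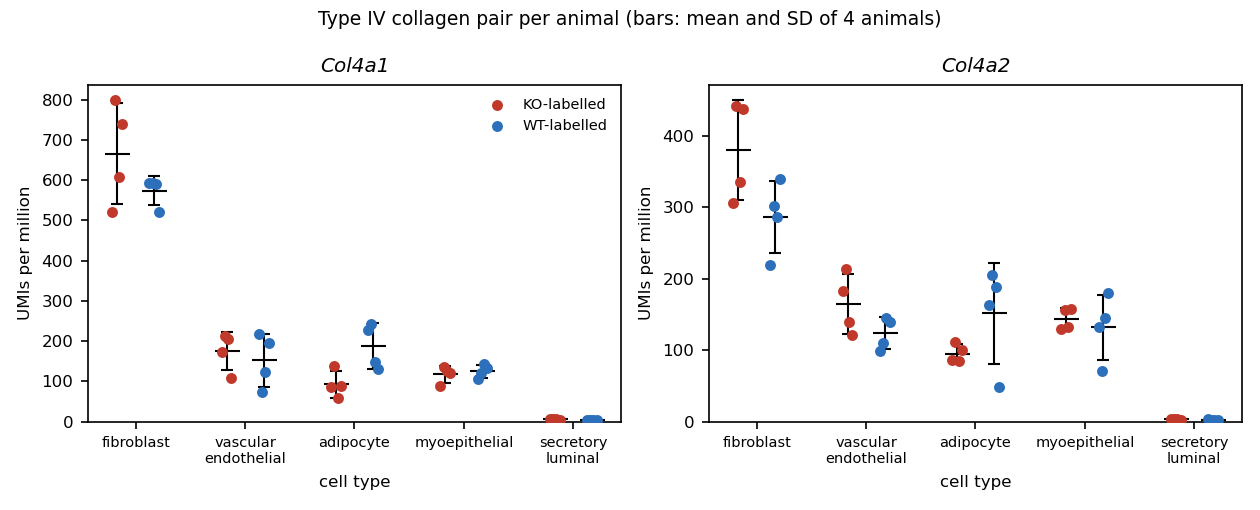
Col4a1 (left panel) and Col4a2 (right panel) in CPM in 5 cell types, with 1 point per animal, KO-labelled left of WT-labelled, and the mean and SD of 4 animals. Both genes are highest in fibroblasts and near 0 in secretory luminal nuclei, and the KO-labelled adipocyte values of Col4a1 lie mostly below the WT-labelled ones.

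Macrophage nuclei held little collagen RNA. In them 9 collagen genes were tested, 1 was higher and 1, Col9a1, was lower, while 12.5% of 10589 genes were higher and 14.9% lower. The higher gene was Col14a1 (log2 1.91), a call lost without WT-labelled animal 2 (1.07). The Klra2 cluster had 9 higher and 1 lower of 13 tested, while 18.2% of 10823 genes were higher and 20.1% lower, and Col27a1 (log2 6.67), Col15a1 (4.00) and Col14a1 (3.22) led. Some marker lists of other cell types were also above the secretory luminal level in this cluster. The pooled adipocyte list was below it (1883 against 2555 CPM), and the pericyte list was near it (64.4 against 59.0 CPM). Pooled over animals, the 12 fibroblast markers summed to 499 CPM in the Klra2 cluster and 186 CPM in secretory luminal nuclei, the 10 vascular endothelial markers to 209 and 10.4 CPM, and the 9 myoepithelial markers to 286 and 29.4 CPM, with no marker of these lists at 0. Their part in the collagen calls was not tested. The Col3a1 level of the cluster was 52.3, 113, 127 and 35.7 CPM in KO-labelled and 75.1, 252, 34.9 and 50.3 CPM in WT-labelled animals. WT-labelled animal 2 was the highest by far.

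Col9a1 was the collagen gene of the secretory luminal nuclei. It encodes a chain of type IX collagen, known from the surface of cartilage fibrils, and it was the collagen gene with the most UMIs in the assigned nuclei, 12582, of which 10848 lay in secretory luminal nuclei. It was lower than in secretory luminal nuclei in all 7 other types tested, by a log2 of -2.48 in adipocytes, -1.42 in fibroblasts, -1.36 in macrophages, -1.30 in myoepithelial nuclei, -1.19 in the Klra2 cluster, -1.06 in luminal progenitors and -0.68 in vascular endothelial nuclei. The calls in luminal progenitors and vascular endothelial nuclei were lost without the animal block. In secretory luminal nuclei it was at 182, 150, 45.7 and 362 CPM in KO-labelled animals and at 193, 240, 220 and 152 CPM in WT-labelled animals. The highest animal stood 7.94-fold above the lowest, and both were KO-labelled. KO-labelled animal 3 was the lowest of the 8 in 7 of 7 types that had all animals, with 16.99 CPM in fibroblasts, 15.8 CPM in myoepithelial nuclei and 4.46 CPM in adipocytes.

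Other secretory RNA was also read in the nuclei of other types. Csn2, which encodes the milk protein beta-casein, was at a pooled 22840 CPM in adipocytes, 30490 CPM in fibroblasts and 45050 CPM in vascular endothelial nuclei, against 43240 CPM in secretory luminal nuclei. KO-labelled animal 3 was also the lowest of the 8 for Csn2 in secretory luminal nuclei, with 33700 CPM beside 39990 to 48950 CPM in the others. For the secretory marker Btn1a1 it was the lowest as well (375 CPM). It was not the lowest for Wap (19290 CPM, with WT-labelled animal 2 at 16410 CPM) or Xdh (4045 CPM, with WT-labelled animal 4 at 3721 CPM). The part of free RNA in the Col9a1 levels of the other types was not tested. Within the secretory luminal nuclei the 3 clusters were at 183, 213 and 178 CPM of Col9a1.

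**Figure D4:**
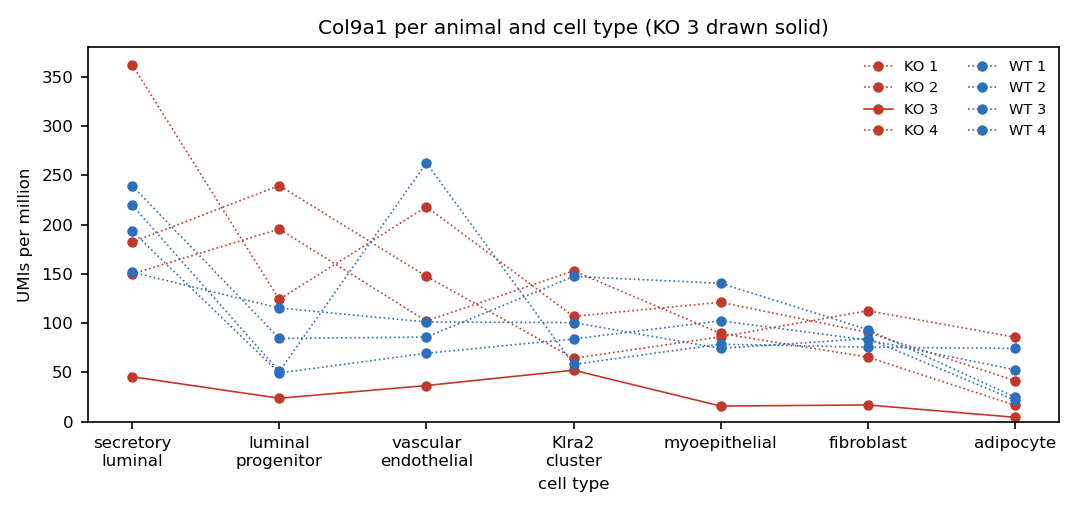
Col9a1 in CPM for each animal in the cell types with at least 10 nuclei of every animal (KO-labelled red, WT-labelled blue), with lines that join the values of 1 animal and a solid line for KO-labelled animal 3. KO-labelled animal 3 is the lowest point in each of the 7 types, and KO-labelled animal 4 is the highest in secretory luminal nuclei at 362.

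Whether collagen levels changed with the genotype label was tested in 8 cell types, each fitted over all its genes. No collagen gene was called at an adjusted p under 0.05 in any of the 8 types with edgeR's quasi-likelihood test, and none with DESeq2. Among all genes, 0% were called in 6 of the types, 0.0148% (1 of 6772 genes, Got1) in myoepithelial nuclei and 0.0418% (1 of 2394 genes, Plpp4) in vascular endothelial nuclei. At an unadjusted p under 0.05 stood 2 of 20 collagen genes tested in fibroblasts, 1 of 17 in myoepithelial nuclei, 1 of 4 in adipocytes, 0 of 21 in secretory luminal nuclei, 0 of 4 in vascular endothelial nuclei, 0 of 3 in luminal progenitors, 0 of 3 in the Klra2 cluster and 0 of 1 in macrophages. Over all genes that p was reached by 298 of 3883 in adipocytes and by 337 of 6473 in fibroblasts. Those counts are not given here for the other types, so the 1 of 17 in myoepithelial nuclei has no background beside it.

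In adipocytes, the cell type named in the knockout, the gene with the smallest p was Col4a1. It was at 85.8, 139, 57.9 and 87.5 CPM in KO-labelled animals and at 229, 243, 149 and 131 CPM in WT-labelled animals. The groups overlapped only through KO-labelled animal 2, which stood above WT-labelled animal 4. The log2 fold change was -0.99 ± 0.28 (SE), with an unadjusted p of 0.0026 and an adjusted p of 0.34, and so it did not pass. Its partner Col4a2 was at 85.8, 111, 84.7 and 99.9 CPM in KO-labelled and 163, 206, 188 and 49.2 CPM in WT-labelled adipocytes, with a log2 of -0.67 ± 0.32 (SE, adjusted p = 0.65). WT-labelled animal 4 had the lowest Col4a2 value of all 8, while the other 3 WT-labelled animals stood above every KO-labelled one. Without that animal the adjusted p was 0.062 for Col4a1 and 0.052 for Col4a2, where the log2 of Col4a2 was -0.95. With animals assigned by a ratio rule, in which the top hashtag needed at least 10 UMIs and 2 times those of the next, the log2 was -0.66 for Col4a1 and -0.09 for Col4a2.

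Marker sums in the same adipocyte nuclei overlapped between the labels, and their differences were not tested. The 12 adipocyte markers summed to 16460 to 20020 CPM in KO-labelled and to 19490 to 30630 CPM in WT-labelled animals, and the 12 fibroblast markers to 1208 to 1626 CPM in KO-labelled and 916 to 1261 CPM in WT-labelled animals. The 10 vascular endothelial markers summed to 25.0 to 111 CPM in KO-labelled and 32.8 to 187 CPM in WT-labelled adipocytes, and none of these lists had a marker at 0 over the pooled adipocytes. Their part in the Col4a1 and Col4a2 values was not tested. The other collagen genes tested in adipocytes were Col5a2 and Col3a1, of which neither reached an unadjusted p of 0.05.

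In fibroblasts the estimates lay on the other side of 0 for most genes. Of 20 collagen genes tested there 17 had a higher and 3 a lower estimate in KO-labelled animals, with a median log2 of 0.16 against 0.01 over all genes. The share of all genes with a higher estimate is not given here. Collagens made up 0.596%, 0.820%, 0.623% and 0.872% of fibroblast UMIs in KO-labelled animals 1 to 4. In WT-labelled animals the shares were 0.6965%, 0.512%, 0.662% and 0.606%. Only KO-labelled animals 2 and 4 stood above the WT-labelled range, so the 17 estimates are not separate results. Col15a1, whose values are given above, averaged 244 ± 66.5 CPM in KO-labelled and 158 ± 39.1 CPM in WT-labelled fibroblasts, with a log2 of 0.60 ± 0.20 (SE), an unadjusted p of 0.0080 and an adjusted p of 0.94. With the ratio rule its log2 was 1.57 (adjusted p = 0.88). Col4a2 was at 306, 441, 335 and 437 CPM in KO-labelled and 219, 302, 287 and 340 CPM in WT-labelled fibroblasts (log2 0.39 ± 0.18, SE, adjusted p = 0.95). With the ratio rule its log2 was 0.91 (adjusted p = 0.88). For both genes the groups overlapped, and 3 of the 4 KO-labelled values of Col15a1 lay above every WT-labelled one. Col4a1 averaged 666 ± 125 CPM in KO-labelled and 574 ± 36.0 CPM in WT-labelled fibroblasts and was not near the threshold.

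The label difference in adipocytes was set against that in fibroblasts in 1 model with the animal as a block, chosen after both had been seen. For Col4a1 the difference of differences was a log2 of -1.16 ± 0.29 (SE), with an unadjusted p of 0.00051 and an adjusted p of 0.26. For Col4a2 it was -0.99 ± 0.36 (SE, adjusted p = 0.57). Over 6210 genes 0% were called, with 409 at an unadjusted p under 0.05, so the difference between the cell types did not pass for these or the other 16 of 18 collagen genes tested.

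In myoepithelial nuclei Col4a6, whose values are given above, averaged 444 ± 75.5 CPM in KO-labelled and 580 ± 51.4 CPM in WT-labelled animals. WT-labelled animal 2, the lowest of its group, stood just under KO-labelled animal 1, the highest of its own. The log2 fold change was -0.39 ± 0.15 (SE, unadjusted p = 0.018, adjusted p = 0.52). Of 17 collagen genes tested there 12 had a lower estimate, with a median log2 of -0.08 against -0.01 over all genes. The share of all genes with a lower estimate is not given here. Oxtr, which myoepithelial cells express, was at 176 to 201 CPM in KO-labelled and at 221 to 258 CPM in WT-labelled myoepithelial nuclei, and a relation of these values to Col4a6 was not tested.

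The remaining types gave no collagen gene at an unadjusted p under 0.05, and the 2 genes with the smallest p in each had the following estimates. In secretory luminal nuclei Col4a4 had a log2 of 0.53 and Col6a2 of 0.51, and in vascular endothelial nuclei Col4a2 had a log2 of 0.40 and Col4a1 of 0.20. In luminal progenitors Col9a1 had a log2 of 1.07 ± 0.53 (SE, unadjusted p = 0.064) and Col4a6 of -0.48. In the Klra2 cluster the values were 0.59 for Col5a2 and -0.37 for Col3a1, and in macrophages 0.11 for Col9a1, the single gene tested. In vascular endothelial nuclei Col6a3 was too scarce for the filter, with 26.8, 37.2, 73.4 and 12.1 CPM in KO-labelled and 0, 0, 5.36 and 0 CPM in WT-labelled animals on 26 UMIs. Without the filter on low counts it was called (log2 3.80, adjusted p = 0.042). The share of all genes called in that fit is not given here, so the call has no background beside it. In those same nuclei the fibroblast markers summed to 402 to 710 CPM in KO-labelled and to 187 to 354 CPM in WT-labelled animals. The pericyte markers summed to 51.4 to 492 CPM in KO-labelled and 49.1 to 99.2 CPM in WT-labelled animals. The part of both marker lists in the Col6a3 values was not tested.

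**Figure D5:**
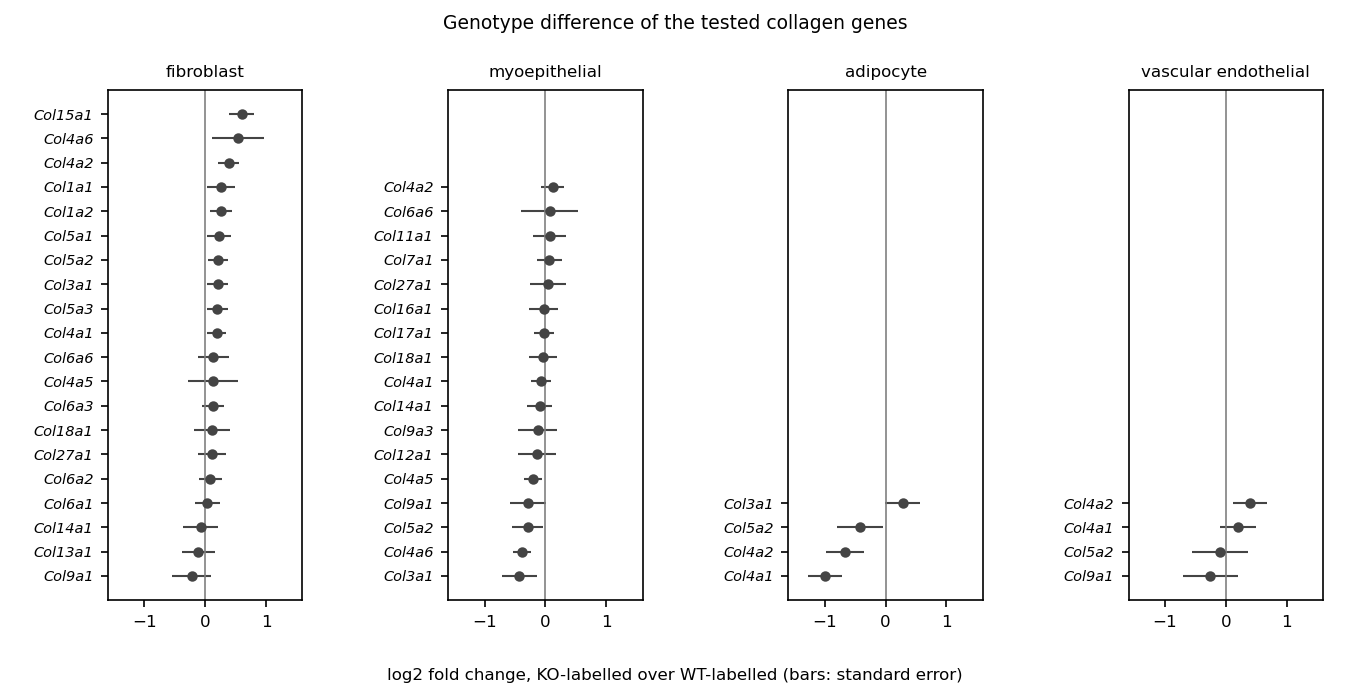
Log2 fold change of each tested collagen gene, KO-labelled over WT-labelled, in 4 cell types, with bars of 1 standard error. Fibroblast estimates lie mostly right of 0, Col4a1 and Col4a2 lie left of 0 in adipocytes, and none passed an adjusted p of 0.05.

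The genes that make, modify, bind and break down collagen were followed from a list grouped by role, of which Dcn, Lum and Fbn1 are also fibroblast markers used to name clusters and others could enter the clustering. In fibroblasts 54 were tested, 44 were higher and 7 lower than in secretory luminal nuclei, beside the 26.4% of all genes that were higher. All 7 fibril-binding genes, 7 propeptide-processing genes, 5 cross-linking genes and 9 degradation genes that were tested were higher. Examples are the fibril-binding proteoglycan gene Dcn (log2 5.45), the propeptidase gene Adamts2 (7.04), the lysyl oxidase gene Loxl1 (6.03), the matrix protease gene Mmp14 (6.12) and the collagen receptor gene Ddr2 (7.48). Of 16 hydroxylation and folding genes 11 were higher and 3 lower. Plod2, a lysyl hydroxylase, was higher (6.77), as was Serpinh1, the collagen chaperone (4.24), while P3h2, a prolyl 3-hydroxylase (-1.18), Mia3, which loads collagen for export (-0.70), and P4hb (-0.60) were lower.

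Pxdn, the peroxidase that cross-links type IV collagen, had its highest level in adipocytes. Pooled, it was at 55.5 CPM in fibroblasts and 59.6 CPM in myoepithelial nuclei, against 159 CPM in adipocytes, and the log2 fold change of fibroblasts over adipocytes was -1.57. Nid1 and Hspg2, which encode nidogen and perlecan and bind type IV collagen in basement membranes, were higher in fibroblasts (log2 6.45 and 5.92) and in adipocytes (4.31 and 4.72) than in secretory luminal nuclei. Nid2 and Agrn were lower in both (log2 -0.47 and -0.89 in fibroblasts, -1.49 and -1.33 in adipocytes).

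No gene of that list was called between the genotype labels with either tool in any of the 8 types. In adipocytes P3h2 was at 75.1, 44.5, 49.0 and 62.5 CPM in KO-labelled and 17.6, 31.2, 29.8 and 21.8 CPM in WT-labelled animals, with groups that did not overlap (log2 1.19 ± 0.36, SE, adjusted p = 0.38). Its pooled adipocyte level of 43.7 CPM was below the 107 CPM of secretory luminal nuclei. In fibroblasts Mrc2, an uptake receptor for collagen fragments, averaged 149 ± 38.6 CPM in KO-labelled and 88.8 ± 34.4 CPM in WT-labelled animals (log2 0.68, adjusted p = 0.94), and Plod1, a lysyl hydroxylase, averaged 51.4 ± 7.55 CPM in KO-labelled and 33.6 ± 2.84 CPM in WT-labelled animals (log2 0.61, adjusted p = 0.94). In myoepithelial nuclei the estimates were -0.75 for Bgn, 0.74 for Adamts3, -0.62 for P4ha1 and -0.45 for Colgalt2, with adjusted p-values of 0.39 to 0.59. In secretory luminal nuclei P3h1 had a log2 of -1.42 and Ddr2 of 0.80, and in the Klra2 cluster Lair1, an inhibitory collagen receptor, had -0.75, and none of them passed.

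The 11 collagen genes that did not reach 50 UMIs in any cell type were Col2a1, Col4a3, Col6a5, Col8a2, Col9a2, Col10a1, Col22a1, Col23a1, Col24a1, Col26a1 and Col28a1. Col4a3, a type IV chain of kidney and lung, had 107 UMIs in all assigned nuclei and at most a pooled 10.9 CPM, in fibroblasts. Col4a4, its partner chain, was at 17.3 ± 10.2 CPM in KO-labelled and 20.2 ± 5.45 CPM in WT-labelled fibroblasts. Col23a1, a transmembrane collagen, had 26 UMIs in adipocytes at a pooled 13.9 CPM and was at 13.3 CPM in fibroblasts. Col22a1 had 3, Col26a1 5, Col10a1 17 and Col8a2 20 UMIs in all.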

How the data were processed

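Per the file headers, the authors deposited raw UMI counts per gene and barcode from Cell Ranger 7.2.0, and the submitters' processing notes also name fastp and build GRCm39. The deposited hashtag counts list the reads behind each hashtag UMI, and no source here says what fastp did or which annotation was counted. Barcodes with at least 500 UMIs, 300 genes and at most 5% mitochondrial UMIs were kept (20854). Hashtags were called with HTODemux (Seurat 5.3.0, quantile 0.99), which left out 2041 doublets, 5479 nuclei without a clear hashtag and 277 of a hashtag named unknown. Another hashtag named unknown was taken out before this call but not for the ratio rule. Where its nuclei fell was not tested. No doublet caller was run beyond this. Clustering of the 18813 nuclei other than doublets (scanpy 1.11.5, 2000 variable genes without collagens, 30 components, Leiden resolution 0.5) gave 17 clusters, named from marker lists where at least 3 markers were enriched.

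UMIs were summed per animal and cell type and tested with edgeR 4.0.16 (quasi-likelihood, TMM scaling, filterByExpr, Benjamini-Hochberg over all genes tested, threshold 0.05) in types where 3 or more animals of each genotype gave 10 or more nuclei. UMIs per animal ranged from 5842922 to 10964520 in KO-labelled and from 7376294 to 10741553 in WT-labelled animals, with a median per nucleus of 4342 to 5212.5 and 4641 to 5610, and these totals limit genes of a few UMIs per animal. Comparisons between cell types had the animal as a block. The comparisons of the fibroblast clusters, of adipocytes with macrophages and of the genotype difference between adipocytes and fibroblasts were added after seeing the data. Alternatives were DESeq2 1.42.0, its size factors, no filter, 1000 UMIs per nucleus, a ratio rule for hashtags, collagens kept in clustering, the block changed, and each animal left out. Scripts were checked on simulated counts (R 4.3.3, Python 3.11.15). The members and gene lists were chosen with earlier results of these data known. Named collagens were, per genotype comparison, those with an unadjusted p under 0.05, otherwise the 2 with the smallest p, and of the companion genes, among the 2 with the smallest p per role and type, those with an unadjusted p under 0.05. A limit for a count of 0 is 3 counts of the total, and it covers counting error only. Promoter windows came from RefSeq (GRCm38.p6), whose coordinates were not joined to the count files. Protein sequences are not shown.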

Additional observations from a re-analysis of the deposited data

Results flagged for a closer look

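Of 83 groups of 4 animals, 3 held an animal far from the other 3 of its group, and chance alone gives about 1 such group in 20. Col4a1 in fibroblasts was at 519.6 CPM in WT-labelled animal 4, on 228 UMIs, beside 589.2 to 593 CPM in the other WT-labelled animals. Col4a5 in luminal progenitors was at 116.2 CPM in KO-labelled animal 1, on 16 UMIs, beside 311.7 to 350.9 CPM in the other KO-labelled animals. Col4a4 in secretory luminal nuclei was at 5.671 CPM in KO-labelled animal 2, on 38 UMIs, beside 9.611 to 10.26 CPM in the other KO-labelled animals.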

How the results depend on the processing

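Across the alternatives, 385 counts of called genes stayed within 1.5 times the reported count and 11 did not. Without the filter on low counts, where up to 44 collagen genes were tested, 1 collagen gene (Col6a3) was called between the genotype labels in vascular endothelial nuclei and 1 companion gene (Tll1, lower) in fibroblasts. The same setting gave 20 called collagen genes in adipocytes against secretory luminal nuclei, in place of 13. It gave 21 in the Klra2 cluster, 19 in vascular endothelial nuclei and 4 in macrophages, in place of 10, 10 and 2. Between the fibroblast clusters it gave 15, and in adipocytes against macrophages 12, in place of 8 and 2. The share of all genes called without the filter is not given here. None of these counts is therefore read as a result about collagens. With 1000 UMIs per nucleus macrophages gave 1. With 1 animal left out, macrophages gave 1 to 2 and adipocytes against macrophages 2 to 4, and no genotype comparison called a collagen gene. Of the named genes, 2230 values kept their side, 15 lost their call and 6 changed direction, none of the 6 called. Col3a1 in the Klra2 cluster went to 0.815 with the ratio rule and ranged from -0.608 to 0.597 with 1 animal left out, positive without WT-labelled animal 2. Col9a1 in macrophages went to -0.034 with DESeq2, -0.666 with the replicate block and from -0.497 (without WT-labelled animal 4) to 0.646 with 1 animal left out, and Colgalt2 in myoepithelial nuclei to 0.017 with the ratio rule. The causes were not tested. With the ratio rule the log2 went to -0.66 for Col4a1 and -0.09 for Col4a2 in adipocytes and to 1.57 for Col15a1 and 0.91 for Col4a2 in fibroblasts. The adjusted p of Col4a1 was 0.060 without the filter and 0.081 with the replicate block. The main fits did not take equal hashtag numbers as pairs, and the values here do not settle that choice. Deviations from the genotype mean correlated between same-numbered animals at -0.018 to 0.373 in secretory luminal and 0.045 to 0.265 in adipocyte nuclei. The range was -0.060 to 0.095 in fibroblast and -0.015 to 0.138 in myoepithelial nuclei. In that order of types the means were 0.212, 0.129, 0.021 and 0.074. Centring on the genotype mean nearly fixes the mean over other pairs, so it gives no separate reference. With the replicate block the called genes of all kinds went to 9 in adipocytes and 28 in myoepithelial nuclei, in place of 0 and 1, with 0 collagen genes called. Pericytes were not fitted, and the ratio rule could not be fitted in luminal progenitors, macrophages or vascular endothelial nuclei.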
